A study of Mus musculus with 6 samples.

Results

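The histone genes were taken from the arrays by name, as every probe whose transcript accession belongs to a gene with a histone symbol, clustered or variant. They came to 75 of 39429 probes and to 62 of 20659 named genes, and 8 of the 62 were found through an older symbol of the gene. Of these genes 44 are replication-dependent and stand under the older cluster names Hist1 to Hist4. A further 11 are variants, most of which lie outside the clusters, and 7 are used mainly in the germ line.

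Histones are the proteins around which DNA is wound: H2A, H2B, H3 and H4 form the core of the nucleosome, and H1 binds the DNA that enters and leaves it. The replication-dependent genes lie in clusters, are transcribed mainly in S phase, when new DNA has to be packaged, and give messages that mostly end in a stem-loop in place of a poly(A) tail. Most variant histones, but not all, are made throughout the cell cycle from polyadenylated messages, and many are exchanged into chromatin by dedicated chaperones. In adult liver most cells rest outside the cycle and can begin to divide after injury.

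Each of 6 arrays of 1 colour held RNA from adult mouse liver cells sorted for the tetraspanin CD63 and then grown in culture. In the DDC injury group (3 arrays) the cells came from livers injured with DDC, a porphyrin-inducing compound that damages bile ducts, and in the no-injury group (3 arrays) from livers without injury. Both groups grew in a DMEM/F12 medium with serum, HGF, EGF, insulin-transferrin-selenium, dexamethasone and nicotinamide, so the values are those of cultures and not of fresh tissue. VEGF and bFGF had been added to cultures named P6, P7 and P9, which no label ties to a sample. Since 2 file names of the no-injury samples hold such numbers, the factors may have been given within that group. By its design text the series is of 6 cell lines. Strain and age are not given in the sources used here, and no label says that replicates came from separate animals or cultures, so p-values may measure a technical spread.

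Each array gave 43020 spots that were not controls, of which 65.0% to 74.8% were well above background and 0 were saturated. Levels below are scaled signals, the log2 of a probe's processed signal minus the 75th percentile of its array, so that 0 is the signal of a probe at that percentile. The 75th percentiles lay between 1441 and 2271 intensity units. No-injury replicates 1 and 3 were averaged and counted as 1 sample, so the test is of 3 DDC injury against 2 no-injury samples, and this step rests on a choice of probes described with the processing. Scan and group cannot be told apart, because each of the 3 scans held 1 group. Cd63 itself was well above background on 6 of 6 arrays, with levels of 3.65 to 4.07 in DDC injury and 3.88 to 3.95 in no injury, which overlapped. Of the hepatocyte markers 5 of 7 were called lower in DDC injury, where 15.7% of all genes tested were called lower. Their summed level (the log2 of the summed scaled signals) was -0.15 to 1.39, against 4.07 to 4.38 in no injury. Of the cholangiocyte and progenitor markers 3 of 7 were lower, with a summed level of 5.66 to 5.80, against 5.97 to 6.00 in no injury. Of 4 mesothelial markers tested 2 were lower, with a summed level of 5.23 to 5.42, against 5.02 to 5.13 in no injury. No gene of the stellate, macrophage, endothelial, lymphocyte or erythroid lists was called, and no array read Clec4f or Reln well above background. In these bulk samples fewer cells of a type and less RNA per cell cannot be told apart, and the part of this shift in the histone results was not tested.

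Promoter sequences show how the replication-dependent genes differ from one another around the start. So 1 is printed for each histone type, that of the tested gene with the smallest adjusted p among those with a sequence. For the variants 1 was chosen in the same way (H2aj). Each runs 5′ to 3′ on the gene's strand from 250 bases before to 50 bases after the start, from RefSeq, build GRCm38.p6. Capitals mark 5 motifs, found on either strand. The CCAAT box is spelled by its own letters. The TATA box was searched as TATAAA. For the E2F site the letters were TTTNGCGC, with N any base. For the octamer they were ATTTGCAT. The H1 box was taken as AAACACA. None of the 5 overlapped another in the sequences printed.
H1f2 promoter, chr13:23738557-23738856, plus strand: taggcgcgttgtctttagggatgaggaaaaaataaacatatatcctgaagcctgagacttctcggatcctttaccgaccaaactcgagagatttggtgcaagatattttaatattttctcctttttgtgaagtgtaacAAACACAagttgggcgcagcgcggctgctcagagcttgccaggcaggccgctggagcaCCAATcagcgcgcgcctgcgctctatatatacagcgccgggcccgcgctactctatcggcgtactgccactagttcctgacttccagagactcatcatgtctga
H2ac15 promoter, chr13:21753863-21754162, minus strand: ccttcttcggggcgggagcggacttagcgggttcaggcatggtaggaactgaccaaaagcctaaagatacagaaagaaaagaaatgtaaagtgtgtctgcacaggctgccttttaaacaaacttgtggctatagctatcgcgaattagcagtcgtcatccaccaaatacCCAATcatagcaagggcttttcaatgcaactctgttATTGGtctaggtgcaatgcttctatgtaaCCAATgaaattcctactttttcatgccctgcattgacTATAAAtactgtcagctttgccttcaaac
H2bc14 promoter, chr13:21721794-21722093, plus strand: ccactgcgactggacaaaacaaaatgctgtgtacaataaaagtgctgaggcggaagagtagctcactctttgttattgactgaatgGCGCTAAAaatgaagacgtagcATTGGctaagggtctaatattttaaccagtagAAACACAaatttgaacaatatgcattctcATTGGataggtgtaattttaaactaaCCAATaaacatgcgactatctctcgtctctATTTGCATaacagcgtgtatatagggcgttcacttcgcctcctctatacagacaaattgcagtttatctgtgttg
H3c8 promoter, chr13:23535168-23535467, plus strand: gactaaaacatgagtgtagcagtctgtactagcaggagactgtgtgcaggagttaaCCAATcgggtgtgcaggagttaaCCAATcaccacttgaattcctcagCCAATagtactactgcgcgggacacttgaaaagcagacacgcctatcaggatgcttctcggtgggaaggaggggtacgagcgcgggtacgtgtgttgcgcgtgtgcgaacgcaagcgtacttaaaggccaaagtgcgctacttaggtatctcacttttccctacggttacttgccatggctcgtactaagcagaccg
H4c9 promoter, chr13:22041313-22041612, minus strand: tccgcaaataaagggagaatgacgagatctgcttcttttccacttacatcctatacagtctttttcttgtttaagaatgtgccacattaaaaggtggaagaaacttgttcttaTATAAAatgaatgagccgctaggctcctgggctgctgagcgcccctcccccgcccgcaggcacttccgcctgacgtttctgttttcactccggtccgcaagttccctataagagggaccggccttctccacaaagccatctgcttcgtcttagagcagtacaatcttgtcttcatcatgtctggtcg
H2aj promoter, chr6:136807998-136808297, plus strand: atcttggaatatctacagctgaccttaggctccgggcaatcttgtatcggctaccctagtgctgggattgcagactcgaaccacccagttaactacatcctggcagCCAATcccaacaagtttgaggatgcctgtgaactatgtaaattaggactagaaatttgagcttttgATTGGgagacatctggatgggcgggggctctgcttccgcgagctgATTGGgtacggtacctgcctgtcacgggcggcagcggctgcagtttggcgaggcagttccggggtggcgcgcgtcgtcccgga

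These motifs are elements known from histone promoters. Of 39 replication-dependent genes with a promoter sequence, 33 (84.6%) held a CCAAT box, against 41.1% of the 27025 genes in the table, and 24 (61.5%) held a TATA box, against 15.7%. The octamer, bound by Oct1 at H2B genes in S phase, was in 11 (28.2%), against 1.97% of all genes. It stood in 5 of 8 H2B promoters, as in H2bc14 above, in 6 of 13 H2A promoters, and in none of the 5 H1 promoters, nor in any of the 5 H3 and 8 H4 promoters. The H1 box was in 4 of 5 H1 promoters, H1f2 among them, against 8.22% of all genes. The E2F site was in 7 replication-dependent genes (17.9%), against 1.57% of all genes, and these were 4 H2A and 3 H2B genes. H4 promoters differed from the other types in that only 2 of 8 held a CCAAT box, and that of H4c9 held a TATA box alone. A match is a description of these letters and not a bound site. Matches were counted anywhere in the sequence, whatever their distance from the start, and the marked TATAAA of H2ac15 lies after the start. Neighbours with close starts on opposite strands, such as H2ac8 and H2bc8, have overlapping sequences, so a match can count for both genes.

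**Figure D1:**
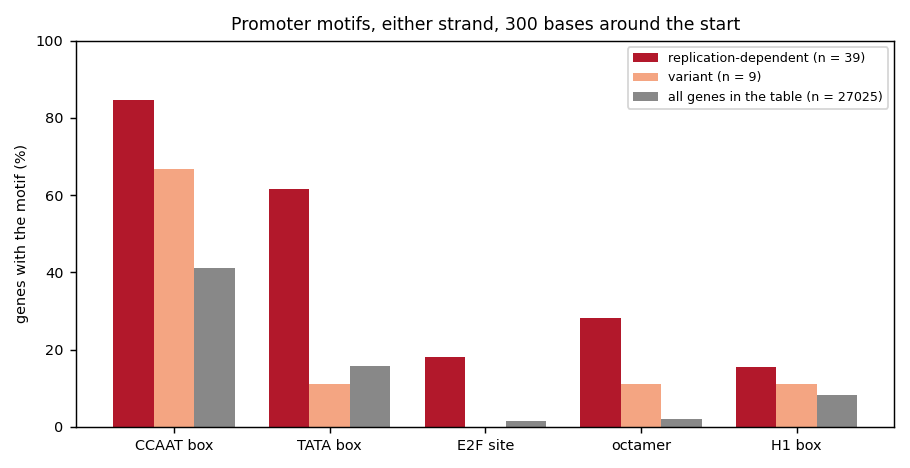
Share of genes (in %, vertical axis from 0) whose 300-base promoter held each of the 5 motifs on either strand, for replication-dependent histone genes (red, n = 39), variant histone genes (light, n = 9) and all genes with a sequence (grey, n = 27025). The red bar is the highest in each motif, and the grey bar is near 0 for the E2F site and the octamer.

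Most replication-dependent histone genes were higher in cells from DDC-injured livers. Of 39 tested, 27 rose (69.2%), 1 fell and 11 did not pass an adjusted p of 0.05 in limma, while 17.6% of all 15645 genes tested rose and 15.7% fell. A gene was tested where 3 or more arrays read it well above background, so genes such as H1f4, H2ac4 and H2ac6, read so on 1 no-injury array each, came in through the DDC injury arrays. Among genes read well above background on all 6 arrays 24 of 33 rose, against 22.1% of all such genes. The median difference of the 39 genes, DDC injury minus no injury, was 1.15 on the log2 scale, against -0.07 over all 15645 genes tested. The genes that rose include H2ac11 (8.06-fold) and H2ac22 (6.90-fold), and H3c7 was the gene that fell. Among variants 4 of 10 tested rose and 1 fell, with a median difference of 0.19. Of 6 germ-line genes tested, H2bc1 rose and 5 did not pass.

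Counted as 6 separate arrays the replication-dependent genes that rose were 32, against 24.6% of all genes. Where the no-injury arrays formed 1 averaged sample they were 2 (H3c8 and H2ac15), when 2.17% of all genes rose and 1.28% fell. Leaving out no-injury replicate 2 also gave 2 (against 2.3% of all genes), and leaving out DDC injury replicate 3 gave 17 (against 11.4% of all genes). With the scan as a random block the count was 19 (against 15.2% of all genes). Within the second scan day, which held 2 DDC injury and 3 no-injury arrays, it was 27 (against 18.2% of all genes). That fit is the same as leaving out DDC injury replicate 1, and the alternative fits count it under both names. Within that day the groups still lay on different scans, so it does not separate scan from group. Apart from the fits with 1 no-injury sample, 16 of the 27 genes kept their call in every alternative fit that tested them and 11 lost it in 1 or more. With normexp background correction and quantile normalization 8 of the 27 had differences over 1.5 times smaller in fold, and these values are given with the genes. The arrays themselves separated more often than the calls: in 32 of the 39 genes all DDC injury arrays lay above all no-injury arrays, against 31.6% of all genes tested, and in 4 genes they lay below, against 31.5%. The median of the 39 genes, taken against their no-injury means, was 1.02, 1.35 and 1.11 on the DDC injury arrays, against 0.03, -0.01 and 0.04 on the no-injury arrays. DDC injury replicate 2 was the highest of the 3 DDC injury arrays in 26 of the 38 genes measured on all of them (68.4%), against 37.0% of all genes tested.

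**Figure D2:**
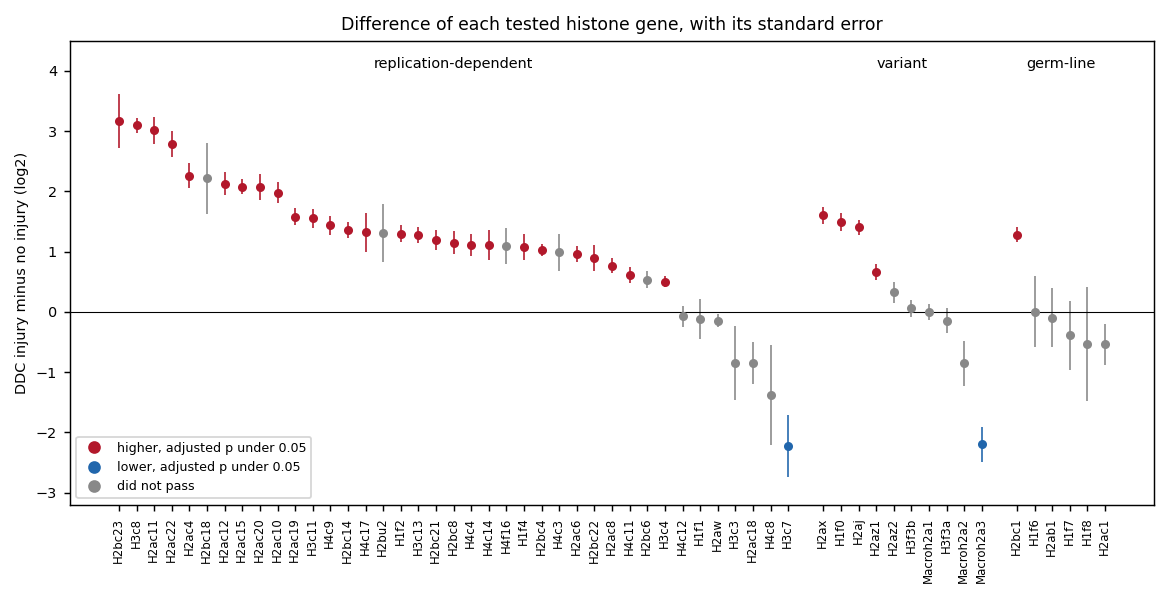
Difference DDC injury minus no injury (log2, vertical axis) of each tested histone gene, with its standard error from limma, ordered within replication-dependent, variant and germ-line genes. Red points rose, blue points fell and grey points did not pass. Of the 39 replication-dependent genes 27 are red and H3c7 alone is blue.

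The linker histones come first. H1f2 had scaled signals of 2.10, 2.42 and 2.17 on the DDC injury arrays, against 0.91, 0.97 and 0.88 on the no-injury arrays. The groups did not overlap, and the difference was 1.30 ± 0.14 (SE), or 2.46-fold (adjusted p = 0.00584). H1f4 read -6.52, -6.04 and -6.32 on the DDC injury arrays, against -7.18, -7.57 and -7.15 on the no-injury arrays, with a difference of 1.07 ± 0.21 (adjusted p = 0.0253). It lay near the detection limit, well above background on 3 DDC injury arrays and on 1 no-injury array. Its call was lost in 7 of 18 alternative fits, and the lowest difference was 0.20, with normexp and quantile normalization. H1f1 did not pass, with -7.07, -6.52 and -6.05 on the DDC injury arrays, against -6.70, -6.39 and -6.25 on the no-injury arrays, which overlapped. H1f3 and H1f5 were too dim to test and were not well above background on any no-injury array. Their bounds were 2.38-fold and 2.79-fold higher in DDC injury. Of the 3 DDC injury arrays, 2 read H1f3 and 1 read H1f5 well above background. Such a bound starts from the bright group's mean over all 3 of its arrays. Against it stands the higher of the dim probe's own signal and the lowest signal well above background. Arrays that did not read the probe well above background enter that mean, so the bound is not a strict lower limit.

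H2A genes had the largest median among the replication-dependent types: 10 of 12 tested rose, with a median difference of 2.03. H2ac11 read 3.25, 3.47 and 2.80 on the DDC injury arrays, against 0.20, 0.16 and 0.15 on the no-injury arrays. H2ac22 read 2.56, 2.91 and 2.29 on the DDC injury arrays, against -0.24, -0.17 and -0.23 on the no-injury arrays. Both were far apart between groups, with differences of 3.01 ± 0.23 (adjusted p = 0.0028) and 2.79 ± 0.21 (adjusted p = 0.0028). H2ac12 had 3.47, 3.86 and 3.31 on the DDC injury arrays, against 1.46, 1.37 and 1.47 on the no-injury arrays, a difference of 2.13 ± 0.20 (adjusted p = 0.00435). H2ac15 had 2.96, 3.07 and 2.81 on the DDC injury arrays, against 0.93, 0.87 and 0.80 on the no-injury arrays, a difference of 2.08 ± 0.12 (adjusted p = 0.00169). The standard error of H2ac15 was small for its difference, and it kept its call in every alternative fit tried. H2ac20, of the cluster on chromosome 3, gave 2.83, 3.10 and 2.53 on the DDC injury arrays, against 0.95, 0.61 and 0.83 on the no-injury arrays. Its difference was 2.07 ± 0.22 (adjusted p = 0.00557). H2ac10 gave 2.85, 3.18 and 2.70 on the DDC injury arrays, against 0.91, 0.92 and 0.97 on the no-injury arrays, a difference of 1.98 ± 0.17 (adjusted p = 0.00394). In each of these 6 genes the lowest DDC injury array was above the highest no-injury array. H2ac10, H2ac15 and H2ac20 had similar levels on each array, and whether their probes read a shared signal was not tested.

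Among the dimmer H2A genes, H2ac4 had -5.29, -4.86 and -5.37 on the DDC injury arrays, against -7.65, -7.54 and -7.02 on the no-injury arrays, a difference of 2.26 ± 0.20 (adjusted p = 0.004). H2ac6 had -6.58, -6.40 and -6.69 on the DDC injury arrays, against -7.94, -7.44 and -7.25 on the no-injury arrays, a difference of 0.96 ± 0.14 (adjusted p = 0.0109). Both were well above background on 3 DDC injury arrays and on 1 no-injury array. With normexp and quantile normalization their differences were 0.71 and 0.26, and H2ac6 lost its call in 7 of 18 alternative fits. H2ac8 had -4.26, -4.36 and -4.26 on the DDC injury arrays, against -5.33, -5.18 and -4.56 on the no-injury arrays, a difference of 0.77 ± 0.12 (adjusted p = 0.014), and the groups did not overlap, with no-injury replicate 3 nearest to DDC injury. Its call was lost in 6 of 19 alternative fits. H2aw, of the small cluster on chromosome 11, did not pass, with a difference of -0.14 ± 0.11.

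H2ac19 and H2ac18 lie on chromosome 3 and are near-identical copies, and their probes read apart. H2ac19 had 2.72 and 2.49 on DDC injury replicates 1 and 3, its spot on replicate 2 being left out as an outlier, against 1.11, 1.06 and 0.88 on the no-injury arrays. Its difference was 1.58 ± 0.14 (adjusted p = 0.00832). H2ac18 had -1.26, -0.32 and -1.23 on the DDC injury arrays, against -0.09, -0.10 and -0.06 on the no-injury arrays, and its difference of -0.85 ± 0.34 did not pass (adjusted p = 0.133). The DDC injury arrays were higher in the one and lower in the other, without overlap in either. Probe sequences were not used here, so which copy each probe measures was not tested. The same holds for the other H2A genes and for the near-identical copies of the other types. Counts of genes may therefore hold a shared signal more than once.

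Of 9 tested H2B genes 6 rose, with a median difference of 1.20 over the 9. H2bc23 had -3.05, -4.01 and -3.20 on the DDC injury arrays, against -6.16, -7.06 and -6.06 on the no-injury arrays. Its difference was 3.17 ± 0.44 (8.98-fold, adjusted p = 0.0107), but 1.53 with normexp and quantile normalization. Of its no-injury arrays 2 of 3 read well above background. H2bc14, the gene of the octamer promoter above, had 1.35, 1.05 and 1.20 on the DDC injury arrays, against -0.09, -0.20 and -0.14 on the no-injury arrays, a difference of 1.36 ± 0.13 (adjusted p = 0.00485). H2bc21 had -2.32, -2.03 and -2.46 on the DDC injury arrays, against -3.47, -3.43 and -3.52 on the no-injury arrays, a difference of 1.20 ± 0.16 (adjusted p = 0.00998). In both the arrays of a group lay close together. H2bc8 had -3.30, -3.83 and -3.48 on the DDC injury arrays, against -4.65, -4.67 and -4.72 on the no-injury arrays, a difference of 1.15 ± 0.19 (adjusted p = 0.0163). H2bc4 had 3.68, 3.61 and 3.77 on the DDC injury arrays, against 2.68, 2.61 and 2.73 on the no-injury arrays, a difference of 1.03 ± 0.10 (adjusted p = 0.0053). It is among the histone genes read above the 75th percentile on every array. H2bc22 had -5.47, -5.18 and -4.86 on the DDC injury arrays, against -6.40, -6.05 and -5.75 on the no-injury arrays, a difference of 0.90 ± 0.21 (adjusted p = 0.0369), a call lost in 8 of 19 alternative fits.

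H2bc18 came nearest to the threshold from outside, with -7.06, -5.38 and -6.33 on the DDC injury arrays, against -9.08, -8.05 and -8.70 on the no-injury arrays and a difference of 2.21 ± 0.59 (adjusted p = 0.051). It was not well above background on any no-injury array, and its bound was 4.61-fold higher in DDC injury on these scaled signals. Over the 14 alternative fits that tested it, the lowest difference was 0.39. H2bc18 passed the filter through the DDC injury arrays alone. H2bu2 and H2bc6 did not pass either, with differences of 1.31 ± 0.48 and 0.53 ± 0.14. Nearest inside the threshold was the H4 gene H4c17, at 0.0418.

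**Figure D3:**
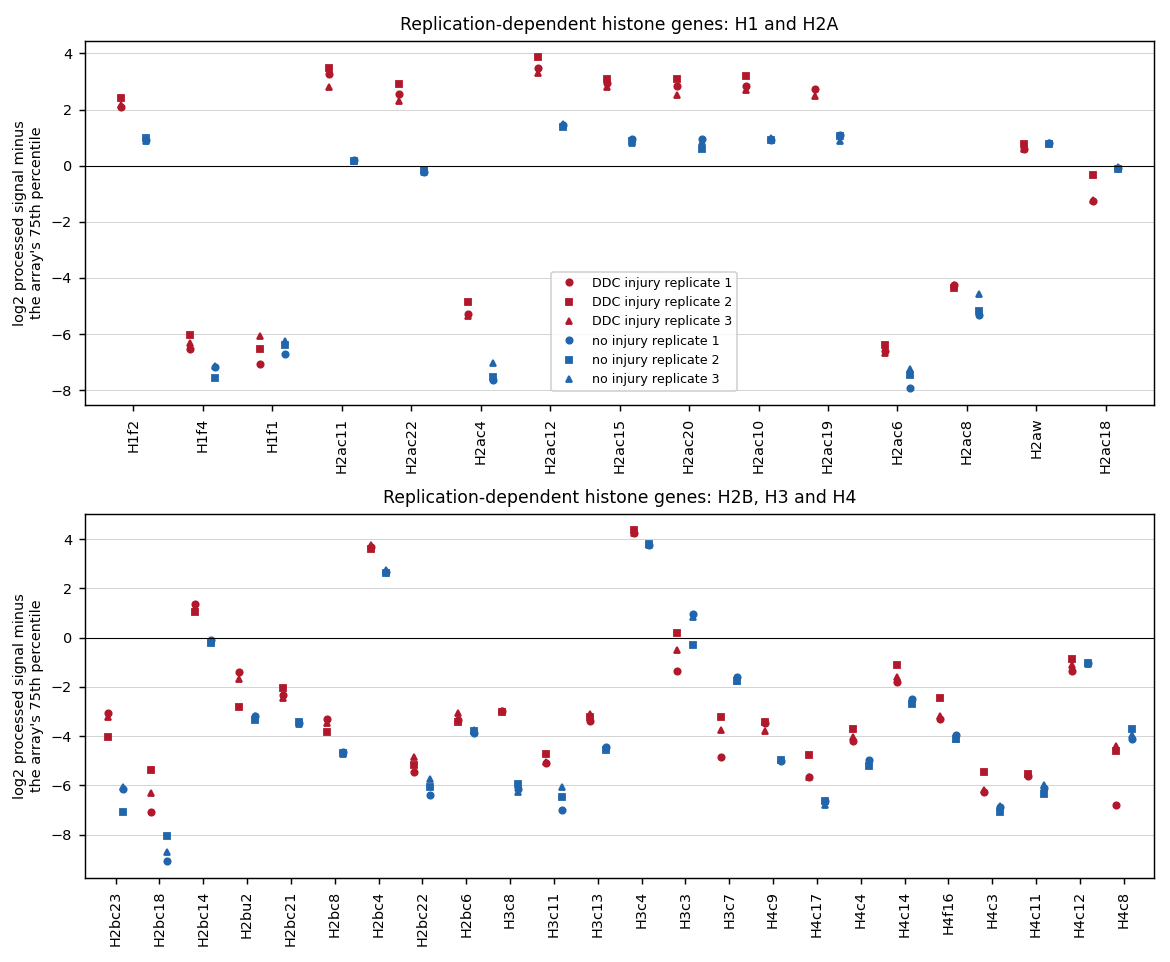
Scaled signal (log2 processed signal minus the 75th percentile of the array, vertical axis) of each tested replication-dependent gene on the 3 DDC injury arrays (red) and the 3 no-injury arrays (blue), with a marker shape for each replicate, H1 and H2A genes above and H2B, H3 and H4 genes below. Levels of different genes come from different probes and are not comparable. In most columns the red points lie above the blue ones, and in H2ac18, H2aw, H3c7 and H4c8 below them.

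H3 genes moved both ways. H3c8 had -2.96, -3.00 and -2.98 on the DDC injury arrays, against -6.16, -5.92 and -6.28 on the no-injury arrays, and the DDC injury arrays lay close together. Its difference was 3.09 ± 0.13 (8.54-fold), with the smallest adjusted p of the histone genes (0.000924). The call held in each of 19 alternative fits, while the difference was 1.89 with normexp and quantile normalization. H3c11 had -5.07, -4.70 and -5.03 on the DDC injury arrays, against -7.00, -6.45 and -6.06 on the no-injury arrays, a difference of 1.55 ± 0.15 (adjusted p = 0.00512), which was 0.61 with normexp and quantile normalization, and the call was lost with the scan as a random block. The chromosome 3 gene H3c13 had -3.38, -3.21 and -3.08 on the DDC injury arrays, against -4.44, -4.55 and -4.46 on the no-injury arrays, a difference of 1.28 ± 0.13 (adjusted p = 0.00541). H3c4 had 4.26, 4.36 and 4.26 on the DDC injury arrays, against 3.78, 3.81 and 3.76 on the no-injury arrays. Its difference was small, 0.50 ± 0.10 (adjusted p = 0.0229), with no overlap between groups, and the call was lost in 7 of 19 alternative fits. H3c7 went the other way, with -4.83, -3.22 and -3.74 on the DDC injury arrays, against -1.58, -1.75 and -1.75 on the no-injury arrays. It fell by 2.22 ± 0.52 (adjusted p = 0.0365), with the DDC injury arrays spread widely and the no-injury arrays close together. The call was lost without DDC injury replicate 3, without no-injury replicate 2, with the no-injury arrays as 1 averaged sample, and with no filter on dim probes. H3c3 did not pass, with -1.34, 0.18 and -0.50 on the DDC injury arrays, against 0.96, -0.31 and 0.82 on the no-injury arrays, which overlapped. H3c1 was not tested. Its bound, made in the same way, was 3.38-fold higher in DDC injury, with 2 of the 3 DDC injury arrays well above background.

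Of 9 H4 genes, all of them tested, 5 rose, with a median difference of 1.09 over the 9. H4c9 had -3.45, -3.40 and -3.77 on the DDC injury arrays, against -5.00, -4.97 and -4.96 on the no-injury arrays. Its difference was 1.44 ± 0.15 (adjusted p = 0.00575), and its second probe gave 1.51 ± 0.21, also called. With normexp and quantile normalization the gene's difference was 0.68. H4c17 had -5.66, -4.78 and -5.64 on the DDC injury arrays, against -6.62, -6.64 and -6.80 on the no-injury arrays, a difference of 1.32 ± 0.32, which was 0.51 with normexp and quantile normalization, and the call was lost in 8 of 19 alternative fits. H4c4 had -4.20, -3.72 and -4.02 on the DDC injury arrays, against -4.96, -5.21 and -4.99 on the no-injury arrays, a difference of 1.11 ± 0.19 (adjusted p = 0.0166). The groups did not overlap in either gene, and the H4c4 call was lost in 4 fits. H4c14, the H4 gene on chromosome 3, had -1.79, -1.10 and -1.59 on the DDC injury arrays, against -2.48, -2.70 and -2.51 on the no-injury arrays, a difference of 1.11 ± 0.25 (adjusted p = 0.0331), a call lost in 6 of 19 alternative fits. H4c11 had -5.63, -5.54 and -5.55 on the DDC injury arrays, against -6.09, -6.33 and -5.99 on the no-injury arrays, a difference of 0.61 ± 0.13 (adjusted p = 0.0292). Its call was lost in 9 of 19 alternative fits, with a difference of 0.18 with normexp and quantile normalization. H4f16, the one replication-dependent gene on chromosome 6, was close to the threshold with 1.09 ± 0.30 (adjusted p = 0.0539), and so was H4c3 with 0.99 ± 0.31 (adjusted p = 0.0743). H4c12 and H4c8 did not pass, with differences of -0.07 ± 0.18 and -1.38 ± 0.83.

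By position, 22 of 29 tested genes of the large cluster on chromosome 13 rose and H3c7 fell, with a median difference of 1.11. Of all genes tested 17.6% rose and 15.7% fell. Of the chromosome 3 cluster 5 of 7 rose, with a median of 1.28. Neither of the 2 chromosome 11 genes passed, with H2aw and H2bu2 on different sides of 0, and the chromosome 6 gene did not pass. By signal, 11 of 12 genes with a mean above the 75th percentile rose, with a median difference of 1.78. Of the 27 dimmer ones 16 rose and 1 fell, with a median of 1.09. The mean includes the DDC injury arrays, and the share called among all genes of like brightness was not taken. H2ac10, H2ac15 and H2ac20, whose probes may read a shared signal, are among the 12. All 7 genes with an E2F site in the promoter rose, out of 24 that rose and have a promoter sequence, and none of the 11 that did not pass held the site. No test was made of this count, and 4 of the 7 are H2A genes, the type with the largest median. H2ac22 and H2bc22 are among the 7. Their starts lie 240 bases apart on opposite strands, so their promoter sequences overlap and the 7 genes need not hold separate sites.

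Many H2A and H2B genes share a promoter, with starts on opposite strands. Pairs were looked for only among genes with a promoter sequence, so a pair that includes H2bc4, which has none, could not be found. Of the pairs found on the chromosome 13 cluster, 3 had both members on the arrays and tested. In the pair of H2ac22 and H2bc22, whose starts lie 240 bases apart, both rose, by differences of 2.79 and 0.90. In the pair of H2ac8 and H2bc8, 180 bases apart, both rose, by 0.77 and 1.15. The third pair is made of germ-line genes 281 bases apart: H2bc1 rose and H2ac1 did not pass.

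Variant histones were more mixed. H2ax, whose protein is phosphorylated around DNA double-strand breaks, had 2.77, 2.42 and 2.61 on the DDC injury arrays, against 0.97, 1.01 and 0.98 on the no-injury arrays. Its difference was 1.60 ± 0.14 (3.03-fold, adjusted p = 0.00388). H1f0, a replacement linker histone known from differentiated and slowly dividing cells, had 2.88, 2.52 and 2.74 on the DDC injury arrays, against 1.19, 1.30 and 1.11 on the no-injury arrays. It rose by 1.49 ± 0.15 (adjusted p = 0.00515), with the DDC injury arrays well apart from the no-injury arrays. H2aj, known to accumulate in senescent human fibroblasts, had 3.29, 3.54 and 3.32 on the DDC injury arrays, against 2.01, 1.99 and 1.93 on the no-injury arrays. It rose by 1.40 ± 0.12 (adjusted p = 0.00395) on the brightest probe, while its second probe gave 0.29 ± 0.16 and did not pass. H2az1, one of 2 genes for H2A.Z, which marks promoters, had 5.12, 5.35 and 5.43 on the DDC injury arrays, against 4.65, 4.62 and 4.67 on the no-injury arrays. It rose by 0.66 ± 0.14 (adjusted p = 0.0275), the called variant nearest to the threshold, and its second probe by 0.98.

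The other H2A.Z gene, H2az2, had 3.64, 3.67 and 3.25 on the DDC injury arrays, against 3.21, 3.16 and 3.25 on the no-injury arrays. Its difference of 0.32 ± 0.17 did not pass, and its second probe had the other sign, -0.66. H3.3, the H3 variant laid down independently of replication, comes from H3f3a and H3f3b. H3f3a had 4.50, 5.07 and 4.85 on the DDC injury arrays, against 4.93, 5.02 and 4.86 on the no-injury arrays, a difference of -0.15 ± 0.20. H3f3b had 4.19, 4.53 and 4.44 on the DDC injury arrays, against 4.29, 4.35 and 4.30 on the no-injury arrays, a difference of 0.06 ± 0.14. Both overlapped between groups and did not pass. MacroH2A, which carries a large extra domain and is enriched on the inactive X chromosome, comes from Macroh2a1 and Macroh2a2. Macroh2a1 had 2.08, 2.16 and 1.85 on the DDC injury arrays, against 2.12, 1.98 and 2.03 on the no-injury arrays, and its difference was 0.00 ± 0.14. Macroh2a2 had -0.87, 0.18 and 0.06 on the DDC injury arrays, against 0.47, 0.74 and 0.64 on the no-injury arrays. Its DDC injury arrays were all lower, but the difference of -0.85 ± 0.37 did not pass (adjusted p = 0.153). Macroh2a3, which RefSeq lists as a transcribed pseudogene, had -3.17, -3.44 and -4.04 on the DDC injury arrays, against -1.34, -1.41 and -1.25 on the no-injury arrays. It fell by 2.20 ± 0.29 (adjusted p = 0.00957), with a difference of -1.60 with normexp and quantile normalization. H1f10 was at background on every array.

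**Figure D4:**
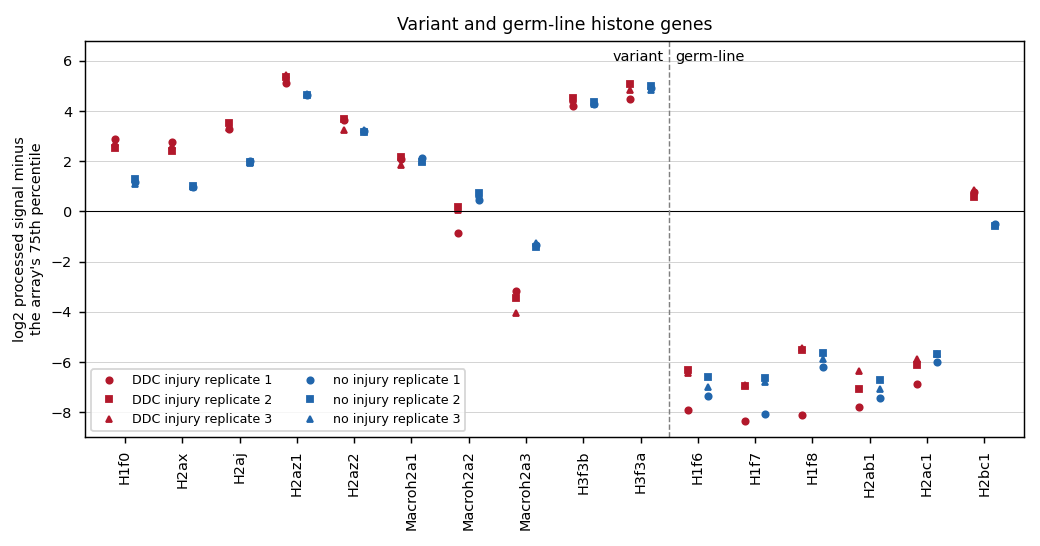
Scaled signal (log2, vertical axis) of each tested variant gene (left of the dashed line) and germ-line gene (right of it) on the 3 DDC injury arrays (red) and the 3 no-injury arrays (blue), with a marker shape for each replicate. Levels of different genes are not comparable. Red lies above blue in H1f0, H2ax, H2aj, H2az1 and H2bc1, just above it in H2az2 (lowest DDC injury array 3.252, highest no-injury array 3.248), below it in Macroh2a2 and Macroh2a3, and overlaps with it in Macroh2a1, H3f3a and H3f3b.

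Of the germ-line genes, H2bc1, the testis H2B, was well above background on 6 of 6 arrays, with 0.78, 0.58 and 0.85 on the DDC injury arrays, against -0.51, -0.57 and -0.52 on the no-injury arrays. It rose by 1.28 ± 0.13 (adjusted p = 0.00496). H2ac1 was also measured on 6 of 6 arrays and did not pass (-0.54 ± 0.34). H1f6, H1f7, H1f8 and H2ab1 overlapped between groups, with differences of -0.53 to 0.00 and each not well above background on at least 1 array. H2al2a was not tested.

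Probe by probe, H2aj alone of the genes with several tested probes differed in call, but probes that did not pass could differ in sign. Over all 27463 probes tested, named or not, 15.4% rose and 13.8% fell, and of the histone probes 35 rose and 2 fell. H2ac15, H2az1 and H4c9 were called on both probes, with H2ac15 at 2.08 and 2.85. H2aj was called on 1 of 2. H4c12 had -0.07 and 0.59, and neither passed. The probes of H2az2 (0.32 and -0.66) and of H3f3a (-0.15 and -0.60) did not pass either. The 3 probes of H3f3b (0.06, 0.01 and -0.28) and of Macroh2a1 (0.00, -0.21 and 0.06) did not pass. The second probes of H4c14 and H4f16 were too dim to test.

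**Figure D5:**
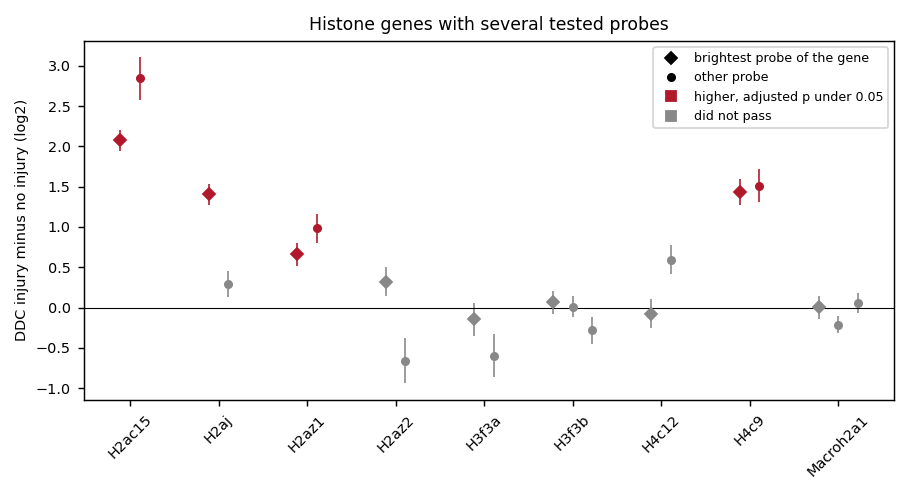
Difference DDC injury minus no injury (log2, vertical axis) of each tested probe, with its standard error from limma, for the 9 histone genes with several tested probes. Diamonds are the brightest probe of a gene and circles its other probes, in red where called higher and in grey where not. Both probes of H2ac15, H2az1 and H4c9 are red, and 1 of 2 for H2aj.

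Genes that serve histone supply were counted by list. Of 44 genes of S phase and DNA replication 28 rose (63.6%) and 0 fell by limma, while 17.6% of all genes tested rose and 15.7% fell. At an unadjusted p under 0.05 also 0 of the 44 were lower, and their median difference was 1.48. Ccna2, the S-phase cyclin A, was 3.28 to 3.52 on the DDC injury arrays, against -0.59 to -0.49 on the no-injury arrays, a difference of 3.92 ± 0.12. The replication factors Gins2 and Rfc4 differed by 2.57 ± 0.14 and 1.79 ± 0.11, and the thymidine kinase gene Tk1 by 3.36 ± 0.28. DDC injury replicate 2 was the highest DDC injury array in 41 of these 44 genes (93.2%), against 37.0% of all genes tested. It was also the highest in 26 of 38 replication-dependent histone genes. The list was chosen with earlier results of these data known.

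Of the list of chaperones and exchange factors, which hand histones to DNA, 18 of 40 tested genes rose (45%), against 17.6% of all genes tested. The median difference was 0.62, and Mcm2, counted here, is also in the S-phase list. Cabin1, of the complex that deposits H3.3, fell by 0.63. Its call was lost with averaged probes, without a filter, without DDC injury replicate 3 and with the scan as a random block, among other fits. Cenpa, the H3 variant of centromeres and not a chaperone, is not among the 62 genes by name but is counted in this list. It rose by 3.70 ± 0.17. The histone chaperone gene Set rose by 1.92 ± 0.12, Anp32e, whose protein takes H2A.Z off chromatin, by 1.24 ± 0.10, and Asf1b, the replication-linked chaperone of H3 and H4, by 2.84 ± 0.26.

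Of the genes of histone message production and 3′ end processing 11 of 29 tested rose (37.9%), against 17.6% of all genes tested. Their median difference was 0.28, and 0 fell by limma, against 15.7% of all genes tested. At an unadjusted p under 0.05 2 were lower, and 4 fell with 6 separate arrays. Lsm11, of the U7 particle that cuts histone messages, was -2.51 to -1.99 on the DDC injury arrays, against -4.02 to -3.93 on the no-injury arrays, and rose by 1.71 ± 0.19. Zfp473, which binds that particle, rose by 1.19 ± 0.13, and Snrpb and Cpsf1 by 1.35 ± 0.09 and 0.91 ± 0.10. Slbp, which binds the stem-loop, had 0.60, 1.16 and 0.60 on the DDC injury arrays, against 0.26, 0.29 and 0.31 on the no-injury arrays. The groups did not overlap, but its difference of 0.50 ± 0.22 did not pass (adjusted p = 0.155). Npat, the coactivator of histone genes, was too dim to test, and Casp8ap2 did not pass. The labels say that RNA was amplified before labelling but not from which primer, so the part of the message end in these signals was not tested.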

How the data were processed

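RNA of 3 DDC injury and 3 no-injury samples was labelled with Cy3 and hybridised to Agilent arrays (design 026655). Feature Extraction 11.0.1.1 read the spots, per the file headers. The deposited intensity columns used are the processed signal, background-subtracted per array, and the median signals of spot and local background. The authors' deposited value table holds log2 values whose column medians lie between 6.921 and 6.927, made with limma (version not given) per the submitters' processing notes, and the column it started from is not stated. Across spots its rank correlation was 0.991 to 0.995 with the processed signal and 0.996 to 0.999 with the median signal.

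Probes were named by accession through a RefSeq table (GRCm38.p6), while the arrays' annotation is mm9. Of 39429 probes 27234 had 1 gene, 0 several and 12195 none here. The files used hold no gene name column, so older symbols in that table stand in for it. Non-uniform and population-outlier spots were left out and spots of a probe averaged. A gene is its brightest probe, tested if 3 or more of 6 arrays read it well above background and each group has 2 or more values. DDC injury was set against no injury in limma 3.58.1 (R 4.3.3, two-sided test by lmFit and eBayes, with a prior df of 1.35), adjusted p being Benjamini-Hochberg over all 15645 genes tested, threshold 0.05. Differences are DDC injury minus no injury and carry the fitted standard error. The fit and its calls were tested on simulated data. The number of arrays limits the precision.

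Averaging no-injury replicates 1 and 3 depends on a check whose form was chosen after its results were seen. The first form, over all 255 probes printed repeatedly and well above background on 6 arrays, found a difference larger than repeated spots allow (chi-square = 433.5 on 254 degrees of freedom, p = 1.56e-11). Other brightness limits and variances were then tried, 24 forms in all, and 9 found no difference between replicates 1 and 3, while in none did replicates 1 and 2 pass. The form adopted takes the 130 probes above the 75th percentile, with variances averaged over the 6 arrays (chi-square test over probes: p = 0.601 for replicates 1 and 3, p = 8.07e-18 for replicates 1 and 2, p = 7.88e-38 for replicates 2 and 3). An earlier treatment of these data had averaged these replicates too. Fits with 6 separate arrays and with the 3 no-injury arrays averaged are given with the first counts.

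The histone genes, their classes and the lists of supply genes and markers were chosen with earlier results of these data known. Named were every member past the threshold and every tested variant, with all arrays, the 4 genes of each supply list with the smallest adjusted p, and the members nearest the threshold. Cabin1, Slbp, Npat, Casp8ap2 and Cd63 were named outside that rule, after their values were seen. Of the 62 genes 55 had a promoter sequence, H3c7 and H2ax not being among them. Other alternatives were the background correction, normalization, the authors' values, the probe of a gene, the filter, each array left out, the scan, a replicate block and array weights. The normexp fit used the median signal, as no mean signal column was used here.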

Additional observations from a re-analysis of the deposited data

How the results depend on the processing

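No called histone gene changed sign under any alternative fit. The calls rest on how no-injury samples are counted: with these 3 arrays averaged, 2 replication-dependent genes rose and 0 fell, 0 variants rose and 0 fell, and 2 histone genes rose and 0 fell in all. In that fit 1 histone probe rose and 0 fell, and of the supply lists 0 processing, 2 chaperone and 3 S-phase genes rose and 0 chaperone genes fell. H3c8 (adjusted p = 0.0273) and H2ac15 (adjusted p = 0.0429) were the genes that kept their calls. Leaving out each array in turn gave 2 to 30 replication-dependent genes higher and 0 to 2 lower, 0 to 4 variants higher and 0 to 2 lower, and 2 to 35 histone genes higher and 0 to 3 lower. It gave 1 to 37 histone probes higher and 0 to 4 lower, 0 to 14 processing genes higher and 0 to 5 lower, 2 to 22 chaperone genes higher and 0 to 3 lower, and 3 to 35 S-phase genes higher and 0 to 1 lower. The lowest counts higher came without no-injury replicate 2, which leaves 1 no-injury sample, assumed to vary like the others. Without DDC injury replicate 2, where 30 replication-dependent genes rose, 3690 of all 15335 genes tested rose and 3144 fell. Without DDC injury replicate 3 the genes that lost their call were H1f4, H2ac8, H2bc8, H2bc22, H3c4, H3c7, H4c17, H4c4, H4c14, H4c11 and H2az1. The scaling moved the sizes: the replication-dependent median was 0.71 with normexp and the 75th percentile, 1.32 with quantile normalization, 0.68 with normexp and quantile normalization and 0.95 with the authors' values, where the median of all genes was 0.07, -0.05, -0.01 and -0.02. The variant median was 0.38 with normexp and the 75th percentile, 0.039 with quantile normalization, 0.32 without a filter and -0.059 when the probes of a gene were averaged, a change of sign.

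Counts lower were small and unsteady. With array weights 2 replication-dependent genes, 2 variants, 4 histone genes, 5 histone probes, 5 processing genes, 4 chaperone genes and 1 S-phase gene fell. Without a filter 0 replication-dependent genes, 1 histone gene, 1 histone probe and 0 chaperone genes fell, and within the second scan day 2 variants and 1 S-phase gene. Processing genes that fell were 4 with 6 separate arrays, 1 with normexp and the 75th percentile, 2 with quantile normalization, 3 with normexp and quantile normalization, 2 with the authors' values and 1 among genes well above background on 6 arrays. Chaperone genes that fell were 3 with 6 separate arrays, 0 with the scan as a random block (correlation 0.478), and 2 each with quantile normalization, with normexp and quantile normalization, with the authors' values, with averaged probes and among genes well above background on 6 arrays. S-phase genes that fell were 1 each with 6 separate arrays, with normexp and quantile normalization and with the authors' values. Over the fits named here, the genes that fell among all tested ranged from 1853 of 20561 without a filter to 4172 of 15645 with array weights. The causes were not tested.

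Genes that changed sign were all uncalled. H1f1 was 0.18, 0.14, 0.030 and 0.051 with normexp and the 75th percentile, quantile normalization, both together and the authors' values, 0.15 within the second scan day and 0.21 with array weights, and -0.36 to 0.15 with an array left out. H2aw was 0.055, 0.031 and 0.031 with normexp and the 75th percentile, normexp and quantile normalization and the authors' values. H4c12 was 0.26 with the mean of its probes, 0.054 within the second scan day and -0.19 to 0.054 with an array left out. H2az2 was -0.17 with the mean of its probes. H3f3b was -0.12 with quantile normalization, -0.069 with the mean of its probes and -0.0072 to 0.16 with an array left out, and H3f3a was 0.0084 within the second scan day and -0.28 to 0.0084 with an array left out. Macroh2a1, near 0 throughout, was -0.013 with 6 separate arrays, with no-injury arrays averaged and with the replicate block, -0.14, -0.085, -0.20 and -0.20 with normexp and the 75th percentile, quantile normalization, both together and the authors' values, -0.050 with the mean of its probes, -0.020 within the second scan day, -0.0070 with the scan as a random block, -0.12 with array weights, and -0.062 to 0.092 with an array left out.

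Both groups carry replicate numbers 1 to 3. Over 15446 genes the deviations of same-numbered samples correlated by 0.12, 0.02 and 0.12, against -0.15 to 0.02 for samples with different numbers. The values of replicates 1 and 3 lay above all of the latter. All were small and the numbers were not taken as a pairing, but whether they stand for one was not tested. With the replicate block, 30 replication-dependent genes rose and 1 fell, 4 variants rose and 1 fell, 35 histone genes rose and 2 fell, and 2 chaperone genes fell. Of all 15645 genes tested 2838 rose and 2726 fell in that fit. Dim probes limit the rest: 5 replication-dependent genes, 1 variant and 1 germ-line gene could not be tested.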
